A study of Homo sapiens with 6 samples.

Results

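The mitochondrial ribosome proteins described here are the protein-coding genes whose symbols begin with MRPL (large subunit, 49 genes) or MRPS (small subunit, 28 genes), 77 genes in all. They were chosen by symbol after the probe names had been updated through the gene identifier, and pseudogenes and non-coding genes that carry the same prefix were left out. Expression was measured on 6 Illumina BeadChip arrays of 1 slide. On 3 arrays the RNA came from HEK293T cells that had received 4 µg of a plasmid with cloned miR-128 in a well of a 6-well plate, and on 3 arrays from control HEK293T cells. HEK293T cells derive from human embryonic kidney and express the large T antigen of SV40. The labels state neither the treatment of the control cells, nor the time of harvest, nor the hairpin that was cloned, and both groups are the same line. The series' design text calls the samples biological triplicates; the array numbers used below follow deposit order and link no transfected array to a control.

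The mitochondrial ribosome makes the few proteins that mitochondrial DNA encodes, all of them subunits of the respiratory chain or of ATP synthase. Its RNAs come from mitochondrial DNA, but every one of its proteins is encoded in the nucleus, made in the cytosol and imported. Some of these proteins have a counterpart in bacterial ribosomes and others occur only in mitochondria. The names do not follow the structure throughout, since MRPS30 and MRPS18A sit in the large subunit.

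The sequences that frame the comparison are those of the introduced microRNA and of promoters of MRPL genes. The mature strand hsa-miR-128-3p is the same from both of its genes, MIR128-1 (GRCh38.p14, chr2:135665446-135665466, plus strand) and MIR128-2 (chr3:35744527-35744547, plus strand). It is shown because its seed, bases 2 to 8 and here in capitals, is the part that pairs with messenger RNAs.
hsa-miR-128-3p: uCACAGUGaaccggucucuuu

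Nuclear genes for mitochondrial proteins are known for promoters that bind nuclear respiratory factor 1 (NRF1), the ETS factor GABP and YY1. Windows of 300 bases, from 250 before to 50 after the RefSeq start site, were searched on both strands for GCATGCGC (NRF1), CCGGAAG (ETS) and AAGATGGC (YY1). The matches do not overlap each other in the sequences printed here. The 250 bases before the start are shown for 4 genes, with the matches in capitals. They are, in each direction, the 2 of smallest p among members with 1 window and a match before the start. Members on 1 chromosome were left out of this choice. MRPL43 (chr10:100987498-100987747, minus strand) and MRPL38 (chr17:75904885-75905134, minus strand) were lower in transfected cells. MRPL3 (chr3:131502972-131503221, minus strand) and MRPL32 (chr7:42932126-42932375, plus strand) were higher, MRPL32 by a log2 difference of 0.24 ± 0.16 (SE, limma adjusted p = 0.345). The sequences are RefSeq's on GRCh38.p14, 5′ to 3′ on the gene's strand.
MRPL43: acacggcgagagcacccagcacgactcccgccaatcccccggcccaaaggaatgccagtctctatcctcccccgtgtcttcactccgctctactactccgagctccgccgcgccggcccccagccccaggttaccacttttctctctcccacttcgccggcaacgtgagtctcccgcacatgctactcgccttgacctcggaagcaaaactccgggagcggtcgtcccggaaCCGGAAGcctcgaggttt
MRPL38: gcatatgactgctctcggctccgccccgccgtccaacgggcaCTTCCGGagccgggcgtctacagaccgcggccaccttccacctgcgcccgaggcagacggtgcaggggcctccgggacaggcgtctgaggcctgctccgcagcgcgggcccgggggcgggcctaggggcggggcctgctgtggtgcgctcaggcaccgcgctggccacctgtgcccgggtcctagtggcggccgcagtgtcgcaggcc
MRPL3: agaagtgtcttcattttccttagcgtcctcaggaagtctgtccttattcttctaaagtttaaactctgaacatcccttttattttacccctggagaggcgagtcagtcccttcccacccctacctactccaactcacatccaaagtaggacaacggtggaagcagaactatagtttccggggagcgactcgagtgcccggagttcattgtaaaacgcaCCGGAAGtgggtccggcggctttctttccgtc
MRPL32: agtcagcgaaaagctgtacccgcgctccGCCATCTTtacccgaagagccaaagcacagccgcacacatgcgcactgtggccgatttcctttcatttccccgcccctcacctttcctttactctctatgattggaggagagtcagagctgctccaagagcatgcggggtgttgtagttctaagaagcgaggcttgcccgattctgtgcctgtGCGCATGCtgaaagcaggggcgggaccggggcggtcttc
The ETS letters lie on the gene's strand 18 bases before the start of MRPL43 and 32 bases before that of MRPL3, and on the opposite strand 208 bases before that of MRPL38. MRPL32 holds the NRF1 letters 39 bases and the YY1 letters 222 bases before its start, both on the opposite strand.

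Mean signal per array was 408 to 591 on the transfected arrays and 513 to 660 on the controls, and 12995 to 14298 against 14001 to 14345 probes were detected above the negative controls at p under 0.01. Of 5 genes known from HEK293 cells, LIN28B and NEFL were detected on 6 arrays and INA on 5, while NEFM and PAX2 were detected on none. Of the markers of other cell types, PTPRC, CD3E, ALB, COL1A2 and CDH5 were detected on no array, DCN on at most 4 arrays per probe and COL1A1 and EPCAM on 6. The part of these genes in the results was not tested. Intensities come from the RNA of many cells together, so fewer cells with a transcript and less transcript per cell cannot be told apart.

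The members were represented by 110 probes, of which 100 were detected on at least 3 arrays and kept. Where a gene had several, the one of highest mean intensity stood for it, which gave values for 76 of the 77 genes: all 49 MRPL genes and 27 of the 28 MRPS genes. The exception was MRPS34, whose single probe was detected on none of the 6 arrays. MRPS14 was detected on 2 of the 3 transfected arrays and on all controls, and the other 75 genes on all 6 arrays. Each probe had at least 19 beads on an array, and the standard error over beads was typically 4.44% of the signal.

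Most mitochondrial ribosome genes had slightly lower intensities in transfected cells, but none passed the test. Of the 49 MRPL genes 30 were lower and 19 higher. Their log2 fold changes, transfected minus control, ran from -0.71 to 0.50 around a median of -0.16. Of the 27 MRPS genes 19 were lower and 8 higher, and their log2 fold changes ran from -0.75 to 0.49 around a median of -0.19. Over all 9797 genes tested, 5100 were lower and 4697 higher and the median was -0.03. The median of a list varied between the arrays of a group with a pooled SD of 0.20 for MRPL and 0.13 for MRPS on the log2 scale.

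With limma, 0 of the 76 members and 0 of all 9797 genes, a share of 0%, had a Benjamini-Hochberg adjusted p under 0.05, while 2796 of all genes had an unadjusted p under 0.05. The lowest adjusted p of a member was 0.0703. At an unadjusted p under 0.05 stood 9 members that were lower, or 11.8%, against a background of 16.1% of all genes, and 4 that were higher, or 5.26%, against 12.4%. All 3 transfected arrays lay below all 3 controls for 13 members, or 17.1%, against 18.1% of all genes. They lay above all controls for 8 members, or 10.5%, against 14.7% of all genes. By none of these counts did the members exceed the background.

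**Figure D1:**
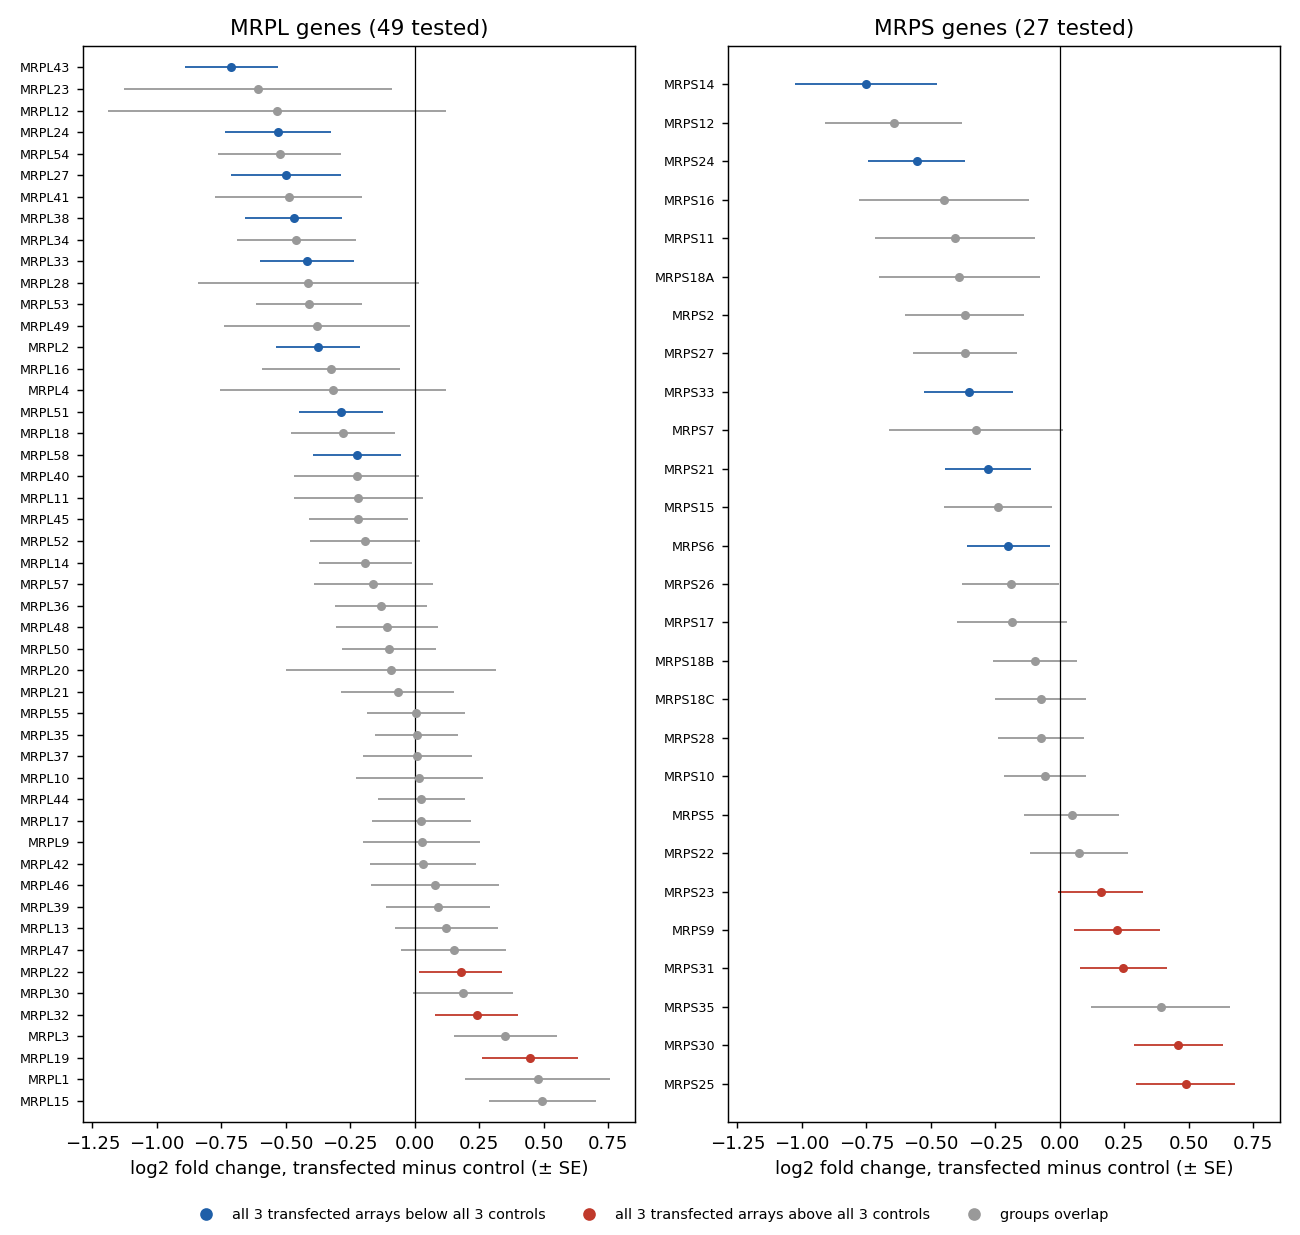
Log2 fold change, transfected minus control, with its moderated standard error for the 49 MRPL genes (left) and 27 MRPS genes (right), each sorted from lowest to highest. Blue marks genes whose 3 transfected arrays lie below all 3 controls, red those whose transfected arrays lie above them and grey those whose groups overlap; 13 genes are blue and 8 are red.

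The large-subunit gene with the smallest p was MRPL43, which encodes a protein found only in mitochondrial ribosomes. Its log2 intensities were 10.32, 10.11 and 10.54 on transfected arrays 1 to 3, against 10.96, 11.01 and 11.14 on controls 1 to 3. Every transfected array lay below every control, and MRPL43 was 1.64-fold lower (log2 difference -0.71 ± 0.18 SE, n = 3 per group, limma adjusted p = 0.0703). Of its other kept probes, both of low signal, 1 gave a log2 difference of -0.54 ± 0.41 and 1 of -0.09 ± 0.29.

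The other 5 lower MRPL genes with the smallest p all have, apart from MRPL38, a bacterial counterpart. MRPL24, whose bacterial counterpart lies by the opening of the exit tunnel, read 10.92, 10.82 and 11.36 on the transfected arrays, against 11.37, 11.74 and 11.58 on the controls. Its transfected array 3 and control 1 were almost level, and the log2 difference was -0.53 ± 0.21 (adjusted p = 0.143). On a dimmer MRPL24 probe the groups overlapped, with a log2 difference of -0.37 ± 0.22. MRPL27, whose counterpart reaches toward the site of peptide bond formation, read 9.95, 10.28 and 10.27, against 10.30, 10.82 and 10.88 on the controls. Control 1 stood just above the highest transfected array here too, and the log2 difference was -0.50 ± 0.21 (adjusted p = 0.167). MRPL38, a protein of the central protuberance that occurs only in mitochondria, read 9.22, 9.46 and 9.69 on the transfected arrays, against 9.95, 10.06 and 9.78 on the controls, a log2 difference of -0.47 ± 0.19 (adjusted p = 0.149).

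MRPL33, the counterpart of bacterial L33, read 12.14, 11.75 and 12.15 on the transfected arrays, against 12.51, 12.36 and 12.42 on the controls. The groups did not overlap, and the log2 difference was -0.42 ± 0.18 (adjusted p = 0.174). A further MRPL33 probe gave -0.48 ± 0.19. MRPL2, whose bacterial counterpart is needed for the peptidyl transferase centre, read 8.70, 8.55 and 8.50, against 8.97, 9.01 and 8.89 on the controls, a log2 difference of -0.38 ± 0.16 (adjusted p = 0.171). Every transfected array lay below every control for MRPL2, and its values within each group were close together.

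The 3 higher MRPL genes with the smallest p all have a bacterial counterpart. MRPL15, a protein of the large-subunit core, read 10.71, 11.29 and 11.12 on the transfected arrays, against 10.39, 10.49 and 10.76 on the controls. Transfected array 1 lay just below control 3, and the log2 difference was 0.50 ± 0.21 (adjusted p = 0.165). MRPL19, whose bacterial counterpart lies at the interface with the small subunit, read 9.32, 9.69 and 9.73, against 8.99, 9.23 and 9.18 on the controls, a log2 difference of 0.45 ± 0.19 (adjusted p = 0.161). MRPL3, mutated in a human cardiomyopathy, read 12.87, 13.38 and 13.06, against 12.54, 12.80 and 12.90 on the controls. Its groups overlapped and the log2 difference was 0.35 ± 0.20 (adjusted p = 0.274), while a dimmer MRPL3 probe gave 0.66 ± 0.18. With arrays scaled to equal medians, which put the median of all genes at -0.33, MRPL3 stood at -0.02.

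MRPL12 had the largest standard error of the 76 members. MRPL12 forms the flexible stalk of the ribosome and also binds the mitochondrial RNA polymerase. It read 8.20, 10.02 and 11.28 on the transfected arrays, against 9.91, 10.74 and 10.46 on the controls, so that the transfected arrays held both its lowest and its highest value. The log2 difference was -0.53 ± 0.66 (adjusted p = 0.609), and it turned to 0.28 without transfected array 1. MRPL10, which anchors MRPL12 in the stalk, read 9.75, 10.09 and 10.34, against 10.48, 9.83 and 9.81 on the controls, a log2 difference of 0.02 ± 0.25.

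MRPL58, a peptidyl-tRNA hydrolase that became part of the ribosome, read 9.96, 10.16 and 10.32 on the transfected arrays, against 10.39, 10.36 and 10.36 on the controls. Its controls were close together and all lay above the transfected arrays, with a log2 difference of -0.23 ± 0.17 (adjusted p = 0.400). MRPL44, a protein with a ribonuclease III-like fold, read 9.82, 9.72 and 9.55, against 9.68, 9.56 and 9.78 on the controls, a log2 difference of 0.03 ± 0.17. The groups of MRPL44 overlapped throughout.

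In the small subunit, the lower genes with the smallest p were led by proteins with a bacterial counterpart. MRPS24, the counterpart of bacterial S3 at the entry of the messenger RNA channel, read 10.20, 9.96 and 10.47 on the transfected arrays, against 10.78, 10.85 and 10.68 on the controls. The groups did not overlap, and MRPS24 was 1.47-fold lower (log2 difference -0.56 ± 0.19, adjusted p = 0.109). MRPS14, a protein of the head, read 5.32, 5.96 and 6.35, against 6.40, 6.62 and 6.87 on the controls. Its signal was near background: it was not detected on 1 transfected array and was 1.68-fold lower (-0.75 ± 0.27, adjusted p = 0.126). With transfected values raised to at least the lowest signal of a detected probe on their array, MRPS14 was 1.37-fold lower. The size depends on the processing. Its log2 difference was -0.29 without background correction, -0.47 without transfected array 1 and -1.88 with the slide position as covariate. The controls lay at slide positions A to C and the transfected arrays at D to F, so position and group largely coincide.

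MRPS12, whose bacterial counterpart monitors decoding and carries mutations for streptomycin resistance, read 10.48, 10.90 and 11.43 on the transfected arrays, against 11.34, 11.87 and 11.53 on the controls. Transfected array 3 lay above control 1, and the log2 difference was -0.64 ± 0.27 (adjusted p = 0.159). A second MRPS12 probe gave -0.88 ± 0.20, with an adjusted p over all kept probes that also missed the threshold. MRPS33, a small protein without a bacterial counterpart, read 11.22, 10.86 and 11.04, against 11.34, 11.41 and 11.43 on the controls, a log2 difference of -0.35 ± 0.17 (adjusted p = 0.213).

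MRPS27, a pentatricopeptide repeat protein that binds RNA, read 10.51, 10.56 and 11.04 on the transfected arrays, against 10.93, 11.06 and 11.23 on the controls. Its groups overlapped, and its pair of probes gave log2 differences of -0.37 ± 0.20 and -0.35 ± 0.21. MRPS21, the counterpart of bacterial S21, read 11.43, 11.43 and 11.70, against 11.75, 11.84 and 11.81 on the controls. These groups did not overlap, and the log2 difference was -0.28 ± 0.17 (adjusted p = 0.297). On a dimmer MRPS21 probe the groups overlapped, with a log2 difference of -0.12 ± 0.27.

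The 3 higher MRPS genes with the smallest p encode proteins without a bacterial counterpart. MRPS25, in the small subunit, read 10.03, 9.78 and 9.60 on the transfected arrays, against 9.43, 9.10 and 9.41 on the controls, a log2 difference of 0.49 ± 0.19 (adjusted p = 0.144). MRPS30, which despite its name belongs to the large subunit, read 12.07, 12.37 and 12.38, against 11.89, 11.78 and 11.79 on the controls. Its controls were close together, all below the transfected arrays, and MRPS30 was 1.38-fold higher (0.46 ± 0.17, adjusted p = 0.131). MRPS31, in the head of the small subunit, read 10.68, 10.76 and 10.98, against 10.62, 10.52 and 10.52 on the controls, a log2 difference of 0.25 ± 0.17 (adjusted p = 0.350); with arrays scaled to equal medians it stood at -0.07.

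MRPS18A, MRPS18B and MRPS18C are paralogs of 1 bacterial protein, S18. MRPS18A, which sits in the large subunit, read 8.10, 8.70 and 9.34 on the transfected arrays, against 8.83, 9.40 and 9.08 on the controls, a log2 difference of -0.39 ± 0.31. With 1 array left out the MRPS18A difference ran from -0.70 without transfected array 3 to -0.084 without transfected array 1. With the slide position as covariate, which largely coincides with group, the MRPS18A difference was -1.50. MRPS18B read 11.46, 11.44 and 11.60, against 11.63, 11.66 and 11.50 on the controls (-0.10 ± 0.16), and a dimmer probe of it gave -0.68 ± 0.47. MRPS18C read 12.17, 11.84 and 12.21, against 12.22, 12.13 and 12.10 on the controls (-0.07 ± 0.18). The groups overlapped for all 3 genes, and differences between the paralogs were not tested. MRPS22, a protein that occurs only in mitochondria and is mutated in human mitochondrial disease, read 11.44, 11.68 and 11.47, against 11.18, 11.62 and 11.57 on the controls, a log2 difference of 0.07 ± 0.19.

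**Figure D2:**
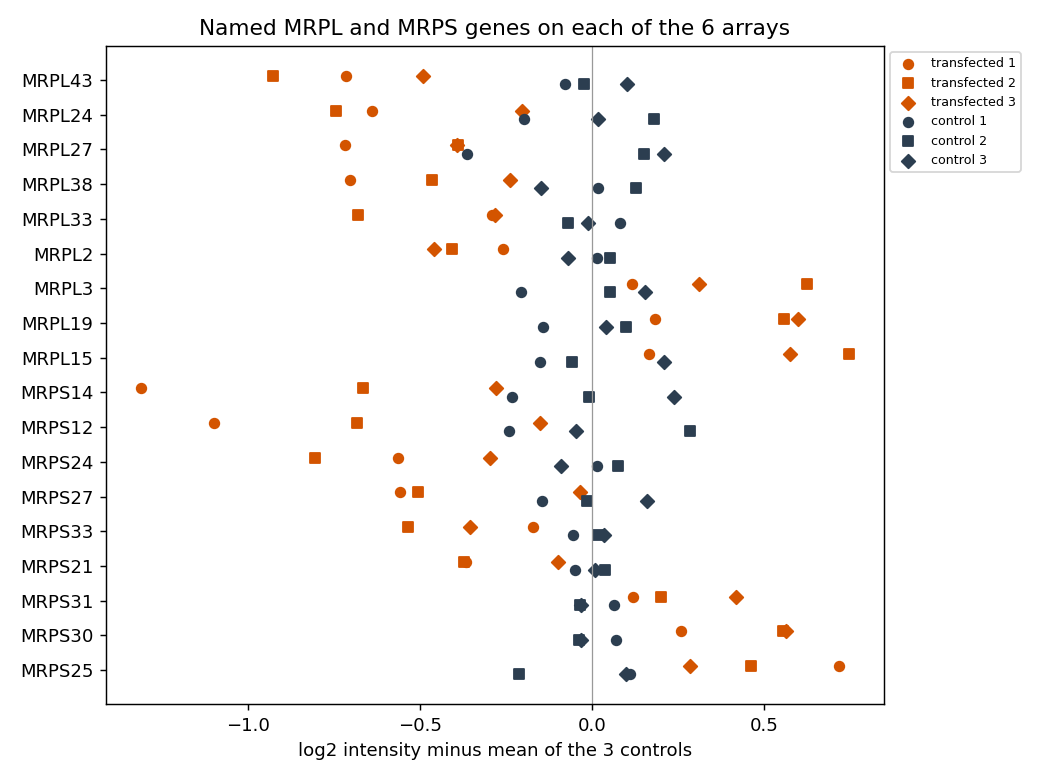
Log2 intensity minus the mean of the 3 controls for the 18 MRPL and MRPS genes with the smallest p in each direction, with transfected arrays in orange and controls in dark grey and a marker shape for each array number. MRPS14 and MRPS12 reach their lowest values on transfected array 1, and transfected array 3 is the one nearest to the controls in most of the lower genes.

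Of 20 members with several kept probes, 4 had probes of opposite sign. MRPL55 was the widest case: its brightest probe on average, used above, gave a log2 difference of 0.01 ± 0.19, and its other probes gave -0.80 ± 0.17 (adjusted p over all kept probes 0.0680) and -0.46 ± 0.19. On the probe with -0.80 the transfected arrays read 9.36, 9.41 and 9.20, against 10.25, 10.15 and 9.98 on the controls. MRPL22 had 0.18 ± 0.16 and -0.16 ± 0.20, MRPL45 -0.22 ± 0.19 and 0.38 ± 0.46, and MRPS33 -0.35 ± 0.17 and 0.04 ± 0.23.

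The 3 transfected arrays did not move together. Relative to the mean of the controls, the MRPL median stood at -0.35, -0.16 and 0.14 on transfected arrays 1 to 3, against -0.17, 0.08 and 0.10 on controls 1 to 3. The MRPS median stood at -0.21, -0.22 and 0.06 on the transfected arrays, against -0.10, 0.08 and 0.02 on the controls. Transfected array 3 was thus above the control mean for both sets, and control 1 was below transfected array 3. Transfected array 1, the dimmest array, held the lowest value of all 6 for 36 of the 76 members. Control 1, the brightest array, held the lowest value of its group for 52 members. Over all genes the median deviation stayed within -0.03 and 0.01 on every array. Quantile normalization gives all arrays the same distribution, so this value was largely set in advance. The part of array brightness in these values was not tested.

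**Figure D3:**
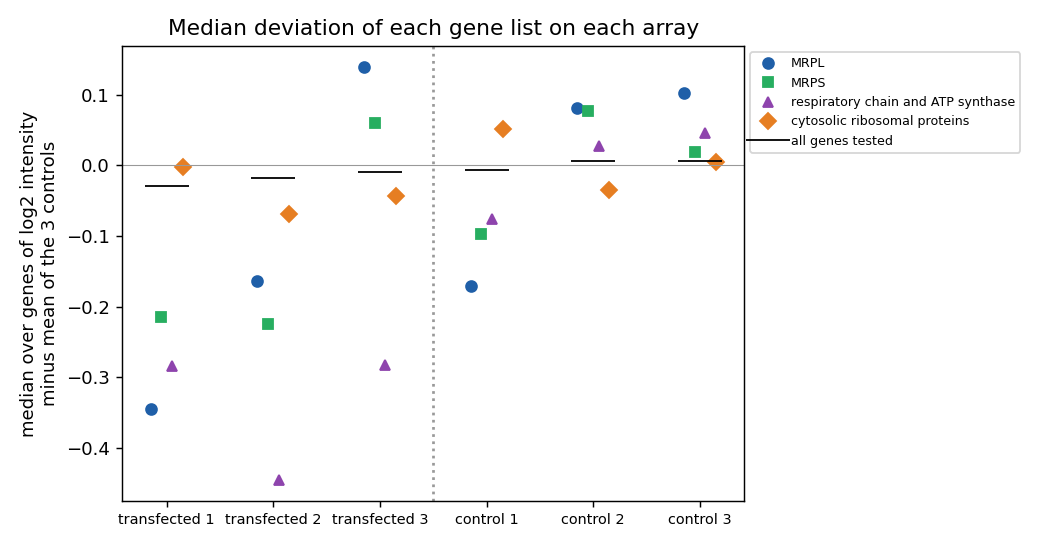
Median over the genes of a list of log2 intensity minus the mean of the 3 controls, for each of the 6 arrays, transfected arrays left of the dotted line. The MRPL and MRPS medians are below 0 on transfected arrays 1 and 2 and on control 1 and above 0 on transfected array 3, while the respiratory chain median is between -0.45 and -0.28 on the transfected arrays.

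The first array of each group was also compared with its group mates. Over the 76 members, transfected array 1 lay typically 0.30 below the mean of transfected arrays 2 and 3, and control 1 typically 0.23 below the mean of controls 2 and 3; 53 members were lower on both. The Spearman correlation of the 2 differences over the 76 members was 0.72, and over all 9797 genes it was 0.61, as a description over genes that share each array. Without both of these arrays, a setting added after the data were seen, 52 of the 76 members were lower and the medians were -0.11 for MRPL and -0.16 for MRPS. Leaving out transfected array 1 alone gave medians of -0.01 for MRPL and -0.08 for MRPS, and leaving out transfected array 3 gave -0.30 and -0.34. Without control 1 they were -0.22 and -0.24. Without transfected array 3, MRPL24, MRPL41, MRPL43, MRPS12, MRPS14 and MRPS24 passed the limma test, all lower, with 15.5% of all genes past it and 7.89% of the members.

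The large and the small subunit differed little in their medians. MRPL minus MRPS was 0.03 on the log2 scale in the medians of the fold change. On single arrays the difference of the medians was -0.13, 0.06 and 0.08 on transfected arrays 1 to 3, against -0.07, 0.0037 and 0.08 on controls 1 to 3, so the groups overlapped. With MRPS30 and MRPS18A counted in the large subunit, where they sit, 31 of 51 large-subunit genes were lower with a median of -0.16, and 18 of 25 small-subunit genes with a median of -0.19.

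Proteins with and without a bacterial counterpart had nearly equal medians over both subunits, but not within each. MRPS18A and MRPS18B are counted as without a counterpart, since MRPS18C is the paralog that takes the place of bacterial S18. With a counterpart, 30 of 46 genes were lower (median -0.19), and without one 19 of 30 (median -0.18). In the small subunit, 14 of 16 genes with a counterpart were lower (median -0.26), against 4 of 9 without one (median 0.07). Among the MRPL genes 16 of 30 with a counterpart were lower (median -0.08), against 14 of 19 without one (median -0.22). The remaining 2 genes without a counterpart are MRPS18A, which was lower, and MRPS30, which was higher; both sit in the large subunit. The median genomic span with and without a counterpart was 9.57 and 15.3 kb in the small subunit. Among the MRPL genes it was 8.19 and 7.91 kb. These splits, and the part of gene span in them, were not tested.

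The members' median fold changes rose with gene span up to 50 kb and lay below 0 beyond it, while those of all genes rose throughout. The Spearman correlation between the genomic span and the log2 fold change was 0.45 over the 76 members and 0.29 over the 9792 genes with a known span, as a description over genes measured on the same arrays. The members are compact genes, with a median span of 8.64 kb, against 29.9 kb for all genes. Of the 21 members that span under 5 kb, 18 were lower, with a median log2 fold change of -0.32, where all genes of that span had a median of -0.30. From 5 to 10 kb 15 of 19 members were lower (median -0.24, all genes -0.26), and from 10 to 20 kb 10 of 18 (median -0.06, all genes -0.16). From 20 to 50 kb 1 of 11 was lower (median 0.12, all genes 0.03), and over 50 kb 5 of 7 (median -0.11, all genes 0.13). Up to 10 kb, the members' medians were close to those of all genes of like span. The part of gene span in the members' lower values was not tested.

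**Figure D4:**
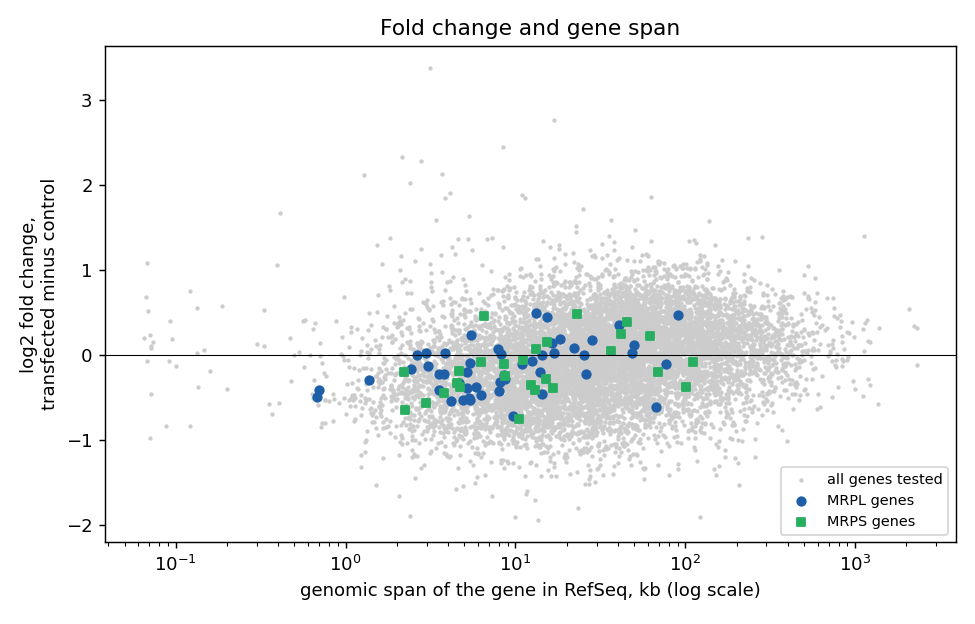
Log2 fold change, transfected minus control, against the genomic span of the gene in kb on a log scale, for all genes tested (grey), MRPL genes (blue circles) and MRPS genes (green squares). Members under 10 kb lie mostly below 0 and within the grey cloud of other genes of that span.

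Of the members, 69 had a promoter window in the table and 68 of these were tested. The ETS letters were in 29 of the 68, or 42.6%, against 22.6% of the tested genes with a window and 12.2% of all genes with one. The YY1 letters were in 30.9%, against 6.64% of tested genes and 3.52% of all, and the NRF1 letters in 8.82%, against 6.57% and 3.68%. Members with the ETS letters had a median log2 fold change of -0.28, with 23 of 29 lower, and those without them -0.13, with 22 of 39 lower. Their median spans were 8.02 and 8.67 kb. Within the subunits, the spans with and without the letters were 5.81 and 8.01 kb for MRPL, and 12.3 and 10.5 kb for MRPS. Split by subunit, 15 of 18 MRPL genes were lower with the letters (median -0.28) and 12 of 24 without (median -0.05), while the MRPS medians were -0.19 and -0.20. Over all tested genes the medians were -0.01 with the letters and -0.02 without. By the YY1 letters the members' medians were -0.13 with and -0.20 without, and by the NRF1 letters -0.02 for 6 genes with and -0.22 for 62 without. These are matches of letters in a fixed window, and no difference between them was tested.

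Other proteins of the mitochondrial ribosome and its helpers were set beside the members. Of 5 ribosome proteins with other names 3 were tested, 2 lower and 1 higher, with a median of -0.40. CHCHD1, a small-subunit protein, had the smallest p. It read 8.59, 8.62 and 9.04 on the transfected arrays, against 9.33, 9.52 and 9.54 on the controls, a log2 difference of -0.71 ± 0.19 (adjusted p = 0.0734). GADD45GIP1, a large-subunit protein at the exit tunnel, had -0.40 ± 0.17 (adjusted p = 0.158). DAP3, the higher one, had overlapping groups and a log2 difference of 0.07 ± 0.18 (adjusted p = 0.811). Of 23 tested assembly factors, which modify ribosomal RNA or escort subunits, 18 were lower and 5 higher, with a median of -0.15. Only 19 of the 23 were detected on all 6 arrays. The others, MPV17L2, RCC1L, MTG1 and GTPBP6, count among the lower ones, with signals near background. RCC1L was detected on 1 transfected array and 2 controls. RPUSD3, a pseudouridine synthase family protein, had -0.65 ± 0.19 (adjusted p = 0.0836), and RBFA, a factor of small-subunit maturation, -0.40 ± 0.18 (adjusted p = 0.180). None of these genes passed the test.

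The 13 tested translation factors split, 7 lower and 6 higher (median -0.04), and those with the smallest p went opposite ways. MTRF1L, a release factor that ends translation, read 11.03, 11.25 and 11.16 on the transfected arrays, against 10.58, 10.52 and 10.46 on the controls, a log2 difference of 0.62 ± 0.16 (adjusted p = 0.0723). TUFM, the elongation factor that delivers transfer RNA, read 10.87, 10.65 and 10.89, against 11.45, 11.30 and 11.40 on the controls, a log2 difference of -0.58 ± 0.17 (adjusted p = 0.0832). Neither pair of groups overlapped. Genes that copy or process mitochondrial DNA and its RNA had 10 of 15 members higher (median 0.15). Among them SUPV3L1, an RNA helicase of mitochondrial RNA decay, had 0.69 ± 0.20 (adjusted p = 0.0862). TFAM, which packages mitochondrial DNA and starts its transcription, had 0.61 ± 0.23 (adjusted p = 0.133). The other 5 were lower, among them ELAC2 (-0.49 ± 0.20, adjusted p = 0.149) and POLRMT (-0.42 ± 0.18, adjusted p = 0.160). For ELAC2 and POLRMT all transfected arrays lay below all controls.

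The respiratory chain, whose mitochondrially encoded subunits this ribosome makes, and the cytosolic ribosome gave different counts. Among 67 tested subunits of ATP synthase and the respiratory chain encoded in the nucleus, 62 were lower, with a median of -0.35. All 3 transfected arrays lay below all controls for 34, or 50.7%, against 18.1% of all genes. Of 74 tested cytosolic ribosomal proteins, 43 were lower, with a median of -0.03, and 9.46% lay below all controls. Against these, 49 of the 76 mitochondrial ribosome genes were lower, with a median of -0.19, and 17.1% lay below all controls. Relative to the control mean, the respiratory chain median was -0.28, -0.45 and -0.28 on transfected arrays 1 to 3, against -0.08, 0.03 and 0.05 on controls 1 to 3, so it was below 0 on transfected array 3, where the mitochondrial ribosome medians were above 0. No test was made between these lists.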

How the data were processed

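The non-normalized table deposited by the authors holds, per the file headers, the mean signal intensity of each probe, its number of beads, their standard error and a detection p-value. BeadStudio is named in the submitters' processing notes, without a version. The authors' second deposited table holds processed intensities, each array a straight line of the signal with background subtracted. The values are linear, with a column mean of 420 on every array. Their column medians were 15.5, 12.5 and 10.5 on the transfected arrays and 9.47, 10.3 and 10.0 on the controls. The arrays thus share a mean, but the labels do not state how the scale was set.

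Here the signals were corrected for background by means of the detection p-values, offset by 16, quantile normalized and logged (base 2) with limma 3.58.1 in R 4.3.3. Of 48803 probes, 27578 had 1 gene, 13 several and 21212 none in the annotation used, updated through gene identifiers to RefSeq on GRCh38.p14. A probe was kept if its detection p fell below 0.01 on 3 or more arrays (14200 probes), giving 9797 genes. Groups were compared with lmFit and eBayes, two-sided, with Benjamini-Hochberg adjustment over all genes at 0.05; the code was tested on simulated data. Whether the triplicates were separate cultures is not stated beyond the design text, and with 3 arrays per group precision is limited. Members, lists and alternatives were chosen with earlier results of these data known. Named genes were, in MRPL and MRPS each, the 6 lower and 3 higher with the smallest p, and 11 members with a known role. Members with probes of opposite sign or untested, and 2 genes per list of helpers, were also named. MRPL32, MRPL41, DAP3, ELAC2, POLRMT, assembly factors not detected on all arrays and second probes were added once their values had been seen.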

Additional observations from a re-analysis of the deposited data

How the results depend on the processing

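Under 19 alternatives the medians of both gene sets stayed below 0, and 26 named genes were followed. The number of genes past the limma threshold, 0 as reported, was 444 without background correction, 386 with an offset of 50, 373 with arrays scaled to equal medians, 273 with cyclic loess, 328 among genes detected on all 6 arrays, 5001 with array weights, 1108 with the slide position as covariate, 1 in the authors' processed table and 565 without both first arrays. With 1 array left out it ran from 0 to 1521, with 1521 without transfected array 3, with 493 without transfected array 1 and 12 without control 1. The array weights were 0.311, 3.39 and 0.371 on transfected arrays 1 to 3 and 0.428, 2.53 and 2.355 on controls 1 to 3. The weighted fit thus leaned mainly on transfected array 2 and on controls 2 and 3. With these weights 32 of the 76 members passed, 25 lower and 7 higher, against 51.0% of all genes. With the slide position as covariate 10 passed, all lower, against 11.3% of all genes, and MRPL43 alone passed without background correction. Controls lay at positions A to C and transfected arrays at D to F, so the fit with position can hardly separate position from group. With arrays scaled to equal medians the MRPL median was -0.51 and the MRPS median -0.53, with 46 MRPL genes lower, while the median of all genes was -0.33. With the slide position they were -0.58 and -0.31, and MRPL minus MRPS was -0.27. With 1 array left out the MRPS median ran from -0.34 to -0.084 and the MRPL median from -0.30 to -0.014. Of the named genes, 9 changed sign somewhere. With equal medians MRPL10 stood at -0.30, MRPL3 at -0.015, MRPL44 at -0.29, MRPS22 at -0.28 and MRPS31 at -0.067; with the slide position MRPL15 stood at -0.085, MRPL19 at -6.7e-05, MRPL3 at -0.065 and MRPS22 at -0.24. Without both first arrays MRPL12 was 0.054, MRPL44 -0.033 and MRPS22 -0.019. With 1 array left out MRPL10 ran from -0.12 to 0.24, MRPL12 from -1.26 to 0.28, MRPL44 from -0.035 to 0.10, MRPS18C from -0.14 to 0.043 and MRPS22 from -0.064 to 0.16. The cause of these shifts was not tested. No paired analysis was possible because the labels number no replicates. Probes close to background, such as that of MRPS14, limit the dimmest values.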

Other observations

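The array also carries probes for pseudogenes of these families. The MRPL42P5 probe was detected on 1 of the 3 transfected arrays and 1 of the 3 controls. Neither of the MRPS31P5 probes was detected on any array, although the log2 intensities of 1 of them, 5.85, 5.36 and 5.50 on the transfected arrays, lay above the 4.94, 5.05 and 4.70 of the controls. The single MRPS34 probe, likewise undetected, read 5.13, 4.66 and 5.29 on the transfected arrays, against 4.68, 5.13 and 4.65 on the controls, and was not well above background on any array.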
